A study of Mus musculus with 8 samples.

Results

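The sestrins Sesn1, Sesn2 and Sesn3, Ddit4 (the gene of REDD1), Deptor, Rragd, Flcn and Gdf15 were examined in mouse embryonic fibroblasts (MEFs) exposed to RHPS4, a compound that binds G-quadruplexes, stacked structures that guanine-rich DNA and RNA can fold into. These 8 genes were chosen by name, as inhibitors and nutrient regulators of the kinase complex mTORC1 with 1 stress hormone added, out of 24460 genes counted. The choice was made with earlier results of these data known. RNA-Seq was done on subconfluent wild type MEFs kept in high-glucose medium without RHPS4 (0 µM, 3 libraries), with 2 µM (3 libraries) or with 10 µM (2 libraries). All cells were of the same wild type, the exposure lasted 16 or 24 h, and although 24 h at 2 µM was chosen for the work on mitochondrial function, the sources used here do not tie either time to the RNA-Seq libraries. Nothing in the labels says that the libraries of a dose came from separate cultures, so p-values measure the spread between these libraries, which may be technical.

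mTORC1 sits on the lysosome and drives protein synthesis and growth when amino acids, growth factors and energy are available. Amino acids act through the Rag GTPases. The complex GATOR2 keeps GATOR1, an inhibitor of the Rags, in check, and sestrins bind GATOR2 and so lower mTORC1 activity. Sestrin 2 is itself a leucine sensor. REDD1 acts on another input, releasing the TSC complex, which switches off the GTPase Rheb. DEPTOR binds mTOR directly. Folliculin, the product of Flcn, is a GTPase activator of RagC and RagD, and Rragd encodes RagD. Growth differentiation factor 15, the product of Gdf15, is secreted by stressed cells and acts on the brain through the receptor GFRAL with RET. Several of these genes are known transcriptional targets: Sesn2, Ddit4 and Gdf15 of ATF4 or CHOP in the integrated stress response (ISR), Sesn1 and Sesn3 of FoxO factors, Sesn1, Sesn2 and Gdf15 of p53, Ddit4 of HIF1A and the glucocorticoid receptor, and Flcn and Rragd of the TFEB family.

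As RHPS4 binds G-quadruplexes, the DNA in front of the listed start sites of these genes was searched for a pattern that can fold into one (4 runs of at least 3 guanines with 1 to 7 bases between runs, on either strand). A few short motifs were searched too, on both strands: the C/EBP-ATF element TGATGNAAN that ATF4 can bind, the E-box CACGTG that TFEB can bind, and the FoxO core GTAAACA. The windows were the 250 bases before each start site in RefSeq (GRCm38.p6, the same assembly as mm10). Of the 8 genes, 7 had a window and Deptor had none listed. A match was a description of letters, not of a bound site. The study reports that at low doses RHPS4 was found mainly in the mitochondria of live cells, and whether it reached these nuclear sequences was not tested here. The G-quadruplex pattern, present in 16.7% of all 32851 promoter windows, lay in the Rragd window, at -62 to -38 and again at -30 to -8 of the start on the coding strand, and in 1 of the 2 Sesn1 windows, at -124 to -100 on the opposite strand. All 250 bases of that Sesn1 window are exonic in GENCODE, so the match lies within the annotated gene. The pattern did not occur in these windows of Sesn2, Sesn3, Ddit4, Flcn or Gdf15. The E-box (6.02% of all windows) occurred once, in 1 of the 2 Gdf15 windows, and the C/EBP-ATF element (3.44%) and the FoxO core (3.17%) in none. Of that Gdf15 window, 196 bases are exonic in GENCODE. The windows of the 2 sestrins whose mRNA changed, without the bases that GENCODE annotates as exonic, and that of Rragd, which held the pattern on the coding strand, read as follows, 5′ to 3′, with capitals for the G-quadruplex pattern.
Sesn2, chr4:132510502-132510706, minus strand: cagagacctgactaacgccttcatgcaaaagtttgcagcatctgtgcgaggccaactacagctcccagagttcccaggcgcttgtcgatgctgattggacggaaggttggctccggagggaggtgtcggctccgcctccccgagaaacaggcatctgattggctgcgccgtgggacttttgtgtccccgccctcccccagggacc
Sesn3, chr9:14276051-14276300, plus strand: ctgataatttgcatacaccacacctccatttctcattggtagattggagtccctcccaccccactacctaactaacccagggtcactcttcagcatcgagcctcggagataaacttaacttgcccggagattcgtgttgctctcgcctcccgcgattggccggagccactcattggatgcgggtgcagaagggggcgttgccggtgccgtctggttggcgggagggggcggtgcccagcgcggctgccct
Rragd, chr4:32982748-32982997, plus strand: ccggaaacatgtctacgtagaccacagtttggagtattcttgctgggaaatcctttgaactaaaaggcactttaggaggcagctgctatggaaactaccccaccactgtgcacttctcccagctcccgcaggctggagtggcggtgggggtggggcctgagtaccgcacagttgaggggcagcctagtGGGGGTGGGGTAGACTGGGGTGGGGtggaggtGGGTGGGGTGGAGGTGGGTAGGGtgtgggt
The Rragd window had 59.6% G or C, the same as the Sesn3 window and close to the 61% of the Sesn2 stretch, so it differs from them in its runs of guanine rather than in its G and C content.

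The libraries held 10455965 to 26688121 counts, so that 3 counts, taken as the smallest readable signal, were worth 0.119 to 0.311 CPM (counts per 1000000 of the TMM-scaled library size). These floors and the intervals for sums of counts cover counting error only. The share of counts from mitochondrial DNA (mtDNA) was 13.2 to 14.4% at 0 µM, 7.40 to 8.26% at 2 µM and 5.33 to 6.32% at 10 µM, without overlap between doses. TMM over nuclear genes alone moved the log2 fold change of Sesn2 at 10 against 0 µM from 1.5294 to 1.5276. It moved that of Sesn3 at 2 against 0 µM from -0.7874 to -0.7779, with an adjusted p of 0.0109 (edgeR), past 0.01. Any other part of the mtDNA share in the levels below was not tested. The 10 fibroblast markers summed to 14000 to 14440 CPM at 0 µM, 12770 to 13010 CPM at 2 µM and 12410 to 12740 CPM at 10 µM, and of them Pdgfrb fell at 10 µM (log2 fold change -0.60 ± 0.07 SE, adjusted p = 0.000248, edgeR). Markers of leukocytes, endothelium, epithelium and skeletal muscle (17 genes in all) summed to at most 11.4 CPM per list in any library, and none was at 0 in every library. None of the 11 that were tested was past the thresholds with edgeR or DESeq2, and 2 had an unadjusted p under 0.05, both at 10 against 0 µM, where 29.4% of all tested genes did. In bulk RNA, fewer cells of a type cannot be told apart from less RNA per cell.

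Levels are given in CPM over library sizes scaled by TMM, and fold changes with their SE from edgeR's quasi-likelihood test over all 8 libraries, with Benjamini-Hochberg adjustment over the 14296 genes that had enough counts. A gene was called a DEG (differentially expressed) where its fold change exceeded 1.5 in either direction with an adjusted p below 0.01. Of the 8 genes, 7 were tested and Gdf15 was below the count minimum. At 2 µM, 1 of the 7 was called, where the share over all tested genes was 0.497%. At 10 µM, 1 of the 7 was called, against 3.09% of all tested genes. Between 10 and 2 µM, 2 of the 7 were called, against 5.51%. As the genes are few and were chosen with earlier results of these data known, these counts cannot be read against those shares. The comparisons with 0 µM share the same 3 untreated libraries, and the comparison of 10 with 2 µM shares libraries with both. Groups that did not overlap were common: 3 of the 7 genes at 2 µM against 25.7% of all tested genes, 4 at 10 µM against 42.9%, and 4 between 10 and 2 µM against 51.8%. Non-overlap was therefore read as a description only.

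**Figure D1:**
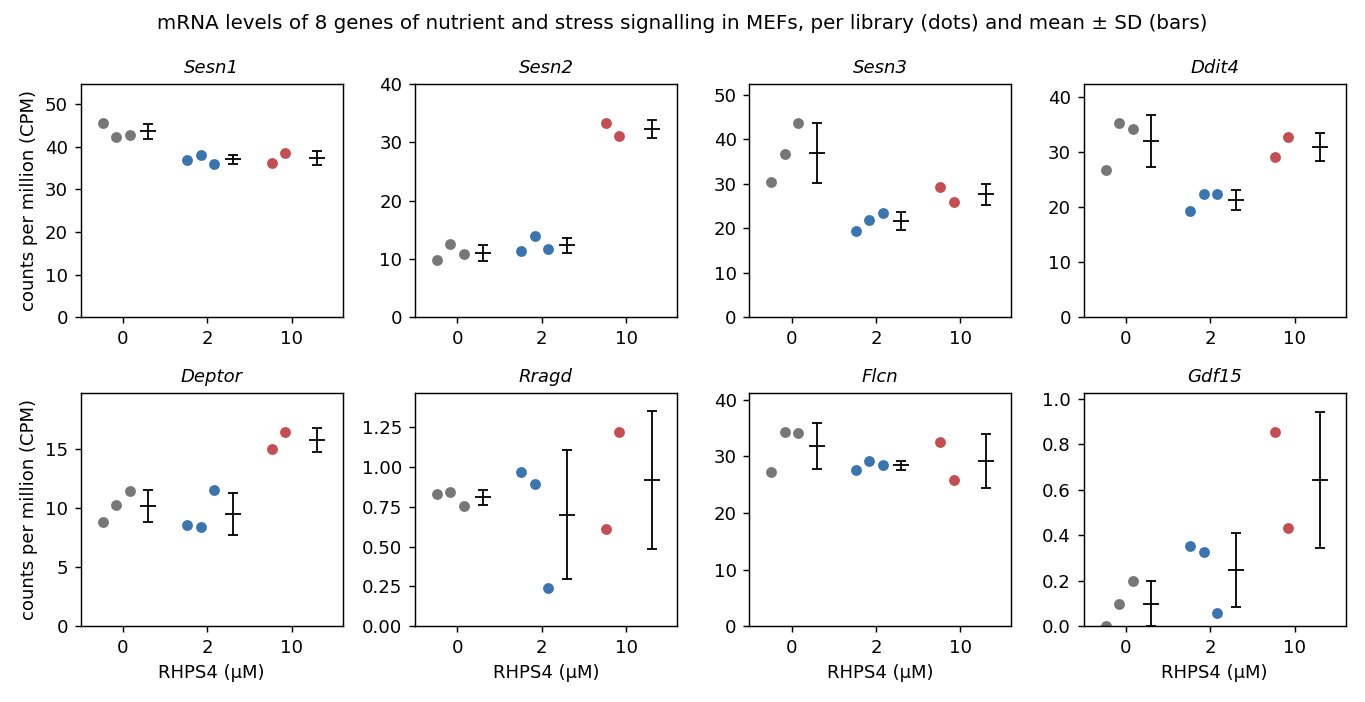
CPM of each of the 8 genes (vertical axis, from 0) against RHPS4 dose in µM (horizontal axis), with a dot per library and the mean ± SD to its right (n = 3, 3 and 2). Sesn2 stands at 31.2 and 33.4 CPM at 10 µM, above all 6 other libraries, while Sesn3 and Ddit4 are lowest in the 3 libraries at 2 µM.

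Sesn2, on chromosome 4 (GRCm38, 132492032 to 132510501, minus strand), rose at 10 µM and not at 2 µM. It was at 9.86, 12.6 and 10.8 CPM in the 3 untreated libraries, at 11.4, 13.9 and 11.7 CPM at 2 µM, and at 33.4 and 31.2 CPM at 10 µM. Both libraries at 10 µM lay far above the other 6, and the libraries at 0 and 2 µM overlapped. The log2 fold change at 10 µM against 0 µM was 1.53 ± 0.12 (2.89-fold, 95% interval 1.27 to 1.79, adjusted p = 1.79e-05, edgeR), and against 2 µM it was 1.39 ± 0.12 (2.63-fold, adjusted p = 2.44e-05, edgeR). At 2 µM the log2 fold change was 0.14 ± 0.12, with an interval from -0.12 to 0.40 and an adjusted p of 0.544 (edgeR). The change at 10 µM stood in all 17 other fits, with log2 fold changes of 1.31 to 1.74.

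Sesn3, on chromosome 9 (14275067 to 14333101, plus strand), fell at 2 µM. Its untreated libraries spread widely, at 30.4, 36.7 and 43.8 CPM. At 2 µM it was at 19.4, 21.9 and 23.4 CPM, all below every untreated library, and at 10 µM it was at 29.4 and 26.0 CPM, between the other doses. The log2 fold change at 2 µM was -0.79 ± 0.13 (interval -1.07 to -0.50, adjusted p = 0.0093, edgeR), just inside the threshold. This call rested on the setting: 6 of 17 other fits kept it, the adjusted p ran from 1.45e-05 to 0.0673, and leaving out any 1 library other than the first untreated one ended it. At 10 µM the log2 fold change was -0.43 ± 0.14 (adjusted p = 0.0662, edgeR), short of the threshold, and the difference between 10 and 2 µM, 0.36 ± 0.15, was not past it either (adjusted p = 0.0995).

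Sesn1, on chromosome 10 (41809935 to 41908424, plus strand), moved little. It was at 45.7, 42.3 and 42.8 CPM without RHPS4, at 36.9, 38.2 and 36.0 CPM at 2 µM, and at 36.3 and 38.6 CPM at 10 µM. Every treated library lay below every untreated one, and the 2 doses overlapped. The log2 fold changes, -0.23 ± 0.07 at 2 µM (adjusted p = 0.0985, edgeR) and -0.22 ± 0.08 at 10 µM (adjusted p = 0.103), did not pass the test and were smaller than the fold threshold. The interval at 10 µM, -0.40 to -0.04, lies below 0 with TMM scaling, whereas scaling by total counts gave a log2 fold change of -0.0020 (adjusted p = 0.987).

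**Figure D2:**
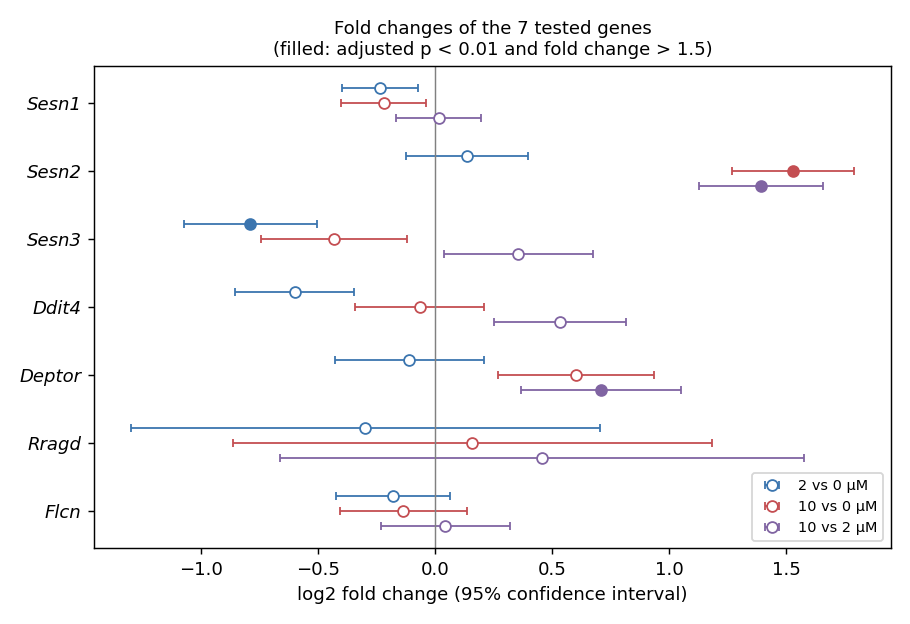
Log2 fold change (horizontal axis) with its 95% confidence interval for the 7 tested genes, for 2 against 0 µM, 10 against 0 µM and 10 against 2 µM RHPS4, with filled dots where both thresholds were passed. Sesn2 is filled at 10 µM against both other doses (1.53 and 1.39), Sesn3 at 2 µM (-0.79) and Deptor between 10 and 2 µM (0.71), while the intervals of Rragd span more than those of any other gene shown.

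The balance between sestrins shifted with dose. Per library, Sesn2 had 0.325, 0.343 and 0.246 counts for each Sesn3 count without RHPS4, 0.587, 0.633 and 0.502 at 2 µM, while the libraries at 10 µM had 1.14 and 1.20. The 3 doses did not overlap, and only at 10 µM did Sesn2 counts outnumber Sesn3 counts. The log2 ratio was -1.73 ± 0.26 (SD, n = 3) at 0 µM, -0.81 ± 0.17 (n = 3) at 2 µM and 0.22 ± 0.05 (n = 2) at 10 µM. It was therefore 0.92 higher at 2 µM and 1.95 higher at 10 µM than at 0 µM, and 1.03 higher at 10 than at 2 µM. Two-sided exact permutation tests gave p = 0.1, 0.2 and 0.2 for these 3 comparisons, which are the smallest values that 3 against 3 and 3 against 2 libraries allow, and 0.2 each after Benjamini-Hochberg adjustment, so that this design could not reach 0.05. A ratio within a library does not depend on how libraries are scaled, but it does not show which of the genes moved.

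Counts divided by the length of each gene's merged exons put the 3 sestrins on 1 scale. On that scale Sesn2 made up 19.2 ± 2.25% (SD, n = 3) of the sestrin signal at 0 µM, 24.8 ± 1.55% (n = 3) at 2 µM and 45.3 ± 1.77% (n = 2) at 10 µM. Sesn1 held 66.2 ± 3.65%, 65.3 ± 1.68% and 45.9 ± 2.45%, and Sesn3 14.6 ± 2.47%, 9.92 ± 0.94% and 8.84 ± 0.68%. Shares are parts of a whole, so a rise of Sesn2 lowers those of the others without a fall in their levels. Mean levels at 2 and 10 µM were 37.0 and 37.4 CPM for Sesn1, and 21.6 and 27.7 CPM for Sesn3. At 10 µM the lowest Sesn2 share was 44.1% and the highest Sesn1 share 47.6%, so the order of these neighbours is not beyond their spread. The share of Sesn3 depends on its length, since its merged exons span 15269 bases and its median coding transcript 1827. With the latter, Sesn3 held 54.4, 43.8 and 41.9% and Sesn2 8.63, 13.2 and 25.7% at 0, 2 and 10 µM, so that the order of the genes changed, but the share of Sesn2 was higher at 10 µM on both scales.

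**Figure D3:**
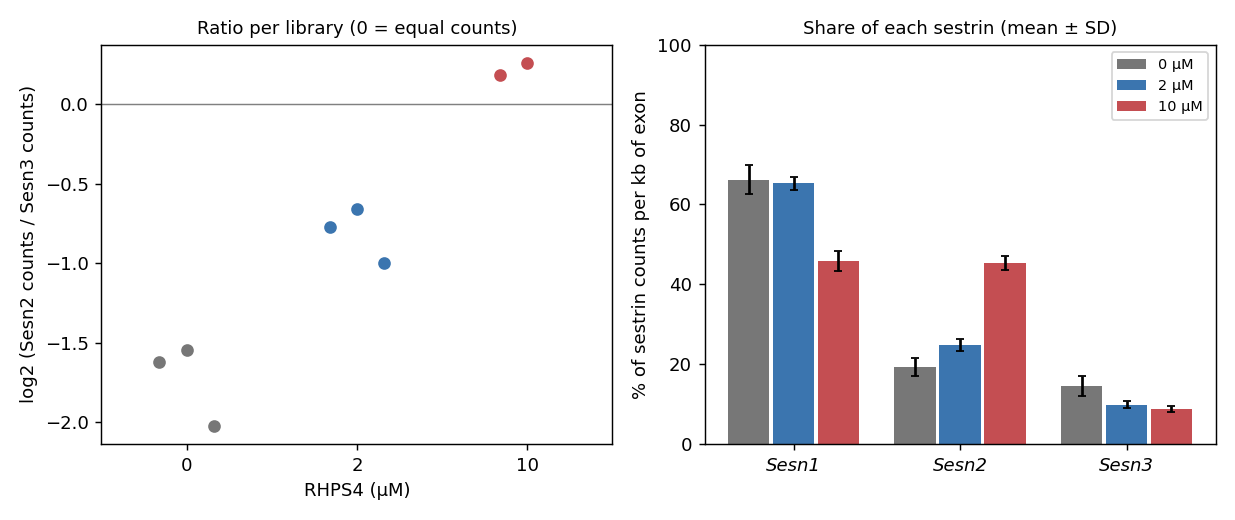
Left, log2 of Sesn2 over Sesn3 counts in each library (vertical axis, 0 marks equal counts) against RHPS4 dose in µM. Right, share of each sestrin in % of sestrin counts per kb of merged exon, mean ± SD (n = 3, 3 and 2), with Sesn2 rising from 19.2% at 0 µM to 45.3% at 10 µM.

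Ddit4, on chromosome 10 (59949669 to 59951834, minus strand), was lowest at 2 µM without passing the test. Its level was 26.7, 35.4 and 34.2 CPM without RHPS4, 19.3, 22.3 and 22.4 CPM at 2 µM, and 29.2 and 32.8 CPM at 10 µM. All libraries at 2 µM lay below the other 5, and those at 10 µM fell among the untreated ones. The log2 fold change at 2 µM was -0.60 ± 0.12 (interval -0.85 to -0.35, adjusted p = 0.0202, edgeR). DESeq2 (adjusted p = 0.00114), no filter on low counts and leaving out the first untreated library each put it past the thresholds, and the adjusted p over 17 other fits ran up to 0.111. At 10 µM the log2 fold change was -0.06 ± 0.13 (interval -0.34 to 0.21, adjusted p = 0.774, edgeR), and between 10 and 2 µM it was 0.53 ± 0.13 (adjusted p = 0.0125), short of the threshold. Scaling by total counts gave 0.15 at 10 against 0 µM, turning the sign, and put the difference between 10 and 2 µM past both thresholds (0.67, adjusted p = 0.00517). Per kb of merged exon, Ddit4 had the highest level of the 8 genes at each dose, at 18.3, 12.2 and 17.7 CPM per kb for 0, 2 and 10 µM. That rank depends on the length used, as Sesn3 has 15269 bases of merged exon but a median coding transcript of 1827.

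Deptor, on chromosome 15 (55112317 to 55259271, plus strand), was higher at 10 µM. It was at 8.82, 10.3 and 11.5 CPM without RHPS4, at 8.55, 8.40 and 11.5 CPM at 2 µM, and at 15.0 and 16.5 CPM at 10 µM. Both libraries at 10 µM lay above the other 6, which overlapped. Between 10 and 2 µM Deptor rose by a log2 fold change of 0.71 ± 0.16 (1.64-fold, adjusted p = 0.00797, edgeR). Against 0 µM the value was 0.60 ± 0.15 with an adjusted p of 0.0229, past the fold but not the p threshold. Of 17 other fits, 11 kept the call between 10 and 2 µM; leaving out the second untreated library, the first or second library at 2 µM, or either library at 10 µM ended it. Another counted gene, Gm9920, overlaps Deptor on the opposite strand, and whether fragments were counted by strand was not given in the sources used here.

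Rragd and Flcn, which act on the lysosomal Rag module, did not pass the test at any dose. Rragd, on chromosome 4 (32983037 to 33022180, plus strand), had only 8, 17 and 19 counts without RHPS4, 11, 11 and 4 at 2 µM, and 10 and 17 at 10 µM. Its log2 fold changes of -0.30 ± 0.46 and 0.16 ± 0.47 had intervals from -1.30 to 0.71 and from -0.86 to 1.18, so a change of 1.5-fold either way was not detectable at this depth. The guanine runs printed above thus stand before a gene with too few counts to compare between doses. Flcn, on chromosome 11 (59791408 to 59810016, minus strand), was well covered, at 27.2, 34.3 and 34.0 CPM without RHPS4, 27.6, 29.1 and 28.4 CPM at 2 µM, and 32.5 and 25.8 CPM at 10 µM. Its 3 doses overlapped, its log2 fold changes were -0.18 ± 0.11 (adjusted p = 0.382, edgeR) and -0.14 ± 0.12 (adjusted p = 0.504), and the interval at 10 µM, -0.41 to 0.14, excludes a rise of 1.5-fold.

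Gdf15, on chromosome 8 (70629393 to 70632456, minus strand), was near the detection limit. It had 0, 2 and 5 counts without RHPS4, 4, 4 and 1 at 2 µM, while the 10 µM libraries had 14 and 6. The first untreated library, at 0, allows up to 0.311 CPM. Both libraries at 10 µM held more counts than any of the other 6, despite totals below those of 2 of the untreated libraries. Summed over libraries, 20 counts at 10 µM against 7 at 0 µM gave a ratio of rates of 5.19 (exact 95% interval 2.11 to 14.5), and 20 against 9 at 2 µM gave 2.97 (1.29 to 7.40), while 9 against 7 gave 1.75 (0.58 to 5.53). These intervals hold counting error only and not the spread between libraries. On the log2 scale the ratio at 10 against 0 µM, 2.38, became 3.30 without the third untreated library and 1.76 without the first at 10 µM. The ratio at 10 against 2 µM, 1.57, became 0.96 without the third library at 2 µM or without the first at 10 µM. The ratio at 2 against 0 µM, 0.81, ran from 0.43 without the first library at 2 µM to 1.73 without the third untreated library. Without the third library at 2 µM that ratio was 1.41. With no filter on low counts, edgeR gave a log2 fold change of 2.27 at 10 µM with an adjusted p of 0.0557, so no call was made. Of the receptor genes, Gfral had 2 to 16 counts and Ret 2 to 14 counts in each library, and Ret, the only one tested, was not called in any comparison.

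For each tested gene, the 3 genes whose log2 CPM followed it most closely over the 8 libraries were found among 10068 genes with a mean of at least 5 CPM. The points share 8 libraries and 3 doses, so high values of Pearson's r are a description. For Sesn2 they were Paqr3 (r = 0.995), Rps6ka2 (0.989) and the ISR gene Vldlr (0.986), for Sesn1 Tmem173 (0.987), Plat (0.987) and Bnip3 (0.958), and for Sesn3 Sipa1l2 (0.983), Pde10a (0.982) and the cholesterol exporter gene Abca1 (0.978). Ddit4 was closest to Maf (0.985), Tmem59 (0.978) and Cd82 (0.975), Deptor to Prdm9 (0.984), Zfp113 (0.984) and Akap10 (0.979), and Flcn to Ssbp3 (0.981), Snx29 (0.981) and Fbrs (0.976). Rragd, with few counts, was closest to Aldh2 (0.961), Eri3 (0.896) and Cyth2 (0.889).

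The mRNAs of the machinery that these genes act on were examined as lists. Those for the mTOR complexes (11 tested), GATOR and the nutrient sensors (13), the Rag GTPases with Ragulator and folliculin's partners (10), TSC with Rheb (5) and AMPK (7) had no gene past the thresholds in any comparison, with edgeR or with DESeq2. At an unadjusted p under 0.05, 4 of these 46 genes differed at 2 µM, where 21.3% of all tested genes did, 11 at 10 µM (29.4% of all) and 16 between 10 and 2 µM (36.5% of all). Their median log2 fold changes at 10 µM against 0 µM were -0.04, -0.09, 0.13, 0.09 and -0.08, where the median over all tested genes was 0.02. Of 11 genes of growth factor input, 1 passed with edgeR: Irs1, an adaptor of the insulin receptor, fell between 10 and 2 µM (log2 fold change -0.76 ± 0.08, adjusted p = 7.02e-05, edgeR). Irs1 was also lower at 10 µM than at 0 µM (57.2 against 84.7 CPM, -0.57 ± 0.07, adjusted p = 0.000665, edgeR), past the p but not the fold threshold. In that comparison DESeq2 called 1 gene of this list. Of 12 mTORC1 effectors, 2 passed with edgeR. Eif4ebp1, whose protein restrains cap-dependent translation until mTORC1 phosphorylates it, rose from 95.8 to 162.4 CPM at 10 µM (0.76 ± 0.08, adjusted p = 0.000159), and Lpin1, a phosphatidic acid phosphatase, fell at 2 µM (-0.60 ± 0.09, adjusted p = 0.00582). Eif4ebp2, a relative of Eif4ebp1 singled out after its values were seen, was at 16.3 CPM at 0 µM and 7.54 CPM at 10 µM (-1.14 ± 0.28), short of the threshold with edgeR (adjusted p = 0.022) and past it with DESeq2 (adjusted p = 0.000225). Together these 7 lists had 69 tested genes, of which 1 was called at 2 µM (1.45%, against 0.497% of all tested genes), 1 at 10 µM (1.45% against 3.09%) and 2 between 10 and 2 µM (2.9% against 5.51%), counts too small to read against those shares.

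Lists of genes controlled by the factors known to act on the sestrins and REDD1 differed more by dose. All lists were chosen with earlier results of these data known, so this contrast may be built in and is a description only. In the ISR list, 0 of 18 tested genes passed at 2 µM and 11 rose at 10 µM, with median log2 fold changes of -0.05 and 1.07. At 2 µM, DESeq2 called 0 as well, and 6 had an unadjusted p under 0.05 in edgeR, where 21.3% of all tested genes did. Over all tested genes, 0.497% were called at 2 µM, 3.09% at 10 µM and 5.51% between 10 and 2 µM. Chac1, a glutathione-degrading enzyme, rose from 18.0 to 74.0 CPM (2.05 ± 0.09, adjusted p = 4.64e-07, edgeR), Trib3, a pseudokinase, from 9.61 to 53.6 CPM, Vldlr by 2.18 ± 0.11, Atf3 by 1.96 ± 0.13, Ddit3, the gene of CHOP, by 1.32 ± 0.13 and Asns, asparagine synthetase, by 1.16 ± 0.08. Nupr1 (1.25), Atf5 (1.20), Stc2 (0.98) and Ppp1r15a (0.84) were higher too. Fgf21, which like Gdf15 encodes a secreted stress hormone, had 0, 1 and 3 counts without RHPS4 and 16 and 11 at 10 µM, and it was tested only because of its counts at 10 µM. Without it, 10 of 17 genes rose at 10 µM, whereas the median of 1.07 above includes it. Eif2ak2 passed between 10 and 2 µM alone.

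In the FoxO list, 4 of 16 tested genes fell at 2 µM and none passed at 10 µM, with medians of -0.50 and 0.13. Over all tested genes, 0.497% and 3.09% were called at these doses. At 10 µM, 8 had an unadjusted p under 0.05 in edgeR, where 29.4% of all tested genes did. DESeq2 called 1 at 10 µM, Foxo3 (-0.62), which missed the fold threshold in edgeR (-0.58). Txnip, an inhibitor of thioredoxin, fell from 122.0 to 56.0 CPM at 2 µM (log2 fold change -1.12 ± 0.09, adjusted p = 0.000217, edgeR), and so did Ccng2 (-0.89), Klhl24 (-0.80) and Pik3ip1, an inhibitor of phosphoinositide 3-kinase (-0.79). Between 10 and 2 µM, Txnip, Klhl24, Pik3ip1, Fbxo32 and Pdk4 passed both thresholds as higher, and Ccng2 passed the p but not the fold threshold (0.45, adjusted p = 0.00927). Sesn3 and Ddit4, which are not on this list, also had their lowest levels at 2 µM.

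In the HIF1A list of 9 tested genes, 3 fell at 2 µM (Egln3, -0.94; Ndrg1, -0.86; Bnip3, -0.80) and 5 at 10 µM (Ankrd37, -1.48; Egln3, -1.28; Bnip3, -0.91; the glucose transporter gene Slc2a1, -0.85; Pdk1, -0.61). Ndrg1 had means of 120.1, 65.8 and 153.3 CPM at 0, 2 and 10 µM, and so was lowest at 2 µM. The other HIF1A genes named here, Ankrd37, Egln3, Bnip3, Slc2a1 and Pdk1, had their lowest means at 10 µM. Ddit4 was lowest at 2 µM and had means of 32.1 CPM at 0 µM and 31.0 CPM at 10 µM. Of 13 p53 genes, 5 rose at 10 µM (Gadd45a by 1.49, Btg2 by 0.97, Trp53inp1 by 0.73, Rrm2b by 0.70 and Plk2 by 0.62), while Trp53inp1 fell at 2 µM (-1.04). The median log2 fold change of this list at 10 µM was only 0.08, with values from -0.56 to 1.49. Of the defining p53 targets, singled out after their values were seen, Mdm2 passed in no comparison with edgeR or DESeq2. Cdkn1a was at 3.98 CPM at 0 µM, 1.49 CPM at 2 µM and 3.25 CPM at 10 µM, and its log2 fold change at 2 µM, -1.41 ± 0.33, did not pass with edgeR (adjusted p = 0.0398) and passed with DESeq2 (adjusted p = 0.00486). Of 7 genes of the glucocorticoid receptor, Tsc22d3 rose at 10 µM (0.67 ± 0.09, adjusted p = 0.000911, edgeR), the only one past the thresholds with edgeR. Fkbp5, another target of the receptor singled out after its values were seen, was at 25.4 CPM at 0 µM and 16.3 CPM at 10 µM (-0.66 ± 0.20), short of the threshold with edgeR (adjusted p = 0.0516) and past it with DESeq2 (adjusted p = 0.00772). In the list of the TFEB family and lysosomal targets, 1 of 17 rose at 10 µM, Gpnmb (0.66 ± 0.11, adjusted p = 0.0027), and Sqstm1, the autophagy receptor p62, and Gla passed between 10 and 2 µM alone. Over all tested genes, 0.497% were called at 2 µM, 3.09% at 10 µM and 5.51% between 10 and 2 µM. The counts in the glucocorticoid receptor and TFEB lists are too small to read against those shares. These lists contain none of the 8 genes, they share targets of more than 1 factor, and the count of a list says nothing of which factor acted.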

How the data were processed

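RNA-Seq was performed by the authors on total RNA of MEFs after depletion of nuclear ribosomal RNA, with strand-specific libraries and 75 bp paired reads. Per the submitters' processing notes, reads were checked with FastQC, trimmed with Trim Galore and cutadapt, aligned to mm10 with STAR 2.5.2a and counted with featureCounts, and the study's methods state that uniquely mapped fragments were used. The counter's version, annotation and strand setting were not given in the sources used here. The deposited values are whole-number counts per gene, 1 library per file, not normalized.

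For the tests, edgeR 4.0.16 in R 4.3.3 (TMM scaling, filterByExpr, glmQLFit, glmQLFTest) was fitted to all 8 libraries with dose as the factor. The thresholds, 0.01 for the adjusted p and 1.5 for the fold change, are those of the study, which used DESeq2, and DESeq2 1.42.0 was run as an alternative. Each SE was obtained from the log2 fold change and its F statistic, and 95% intervals from the fit's degrees of freedom. On simulated counts for the comparison of 10 with 0 µM (14614 genes tested), 185 of 200 changed genes and 1 unchanged gene were called. The simulation gave every gene the same spread beyond counting error. It changed only nuclear genes above a minimum level, by more than the fold threshold. It therefore does not show how smaller changes, low counts or the spread of these libraries affect the calls. Ratios used 0.5 added to each count. GENCODE (GRCm38) gave gene positions and lengths. Other steps used Python 3.11.15, scipy 1.17.1 and pandas 2.3.3.

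The genes and lists were chosen with earlier results of these data known. The genes named were the 8 genes, every list gene past the thresholds in at least 1 comparison and the 3 genes closest over libraries to each of the 7 tested. Atf4, Cdkn1a, Mdm2, Foxo3, Eif4ebp2 and Fkbp5, from the lists, and the receptor genes Gfral and Ret were added after their values were seen. Of 182 list genes, 2 (Bmt2 and Ca9) did not match a name in the counts, and Castor1 and Castor2 were matched as Gatsl3 and Gatsl2. Alternatives were RLE, TMM over nuclear genes, total counts, no filter, at least 10 counts in every library, DESeq2 with and without shrinkage, no fold threshold, an adjusted p under 0.05, a fit of 2 doses alone, a block for the replicate number, and leaving out each library in turn.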

Additional observations from a re-analysis of the deposited data

Results flagged for a closer look

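The results below were singled out because the effects of 2 and 10 µM RHPS4 differed by the test of 10 against 2 µM itself (edgeR, adjusted p under 0.01 and fold change over 1.5), as 5.51% of all tested genes did. Log2 fold changes are 10 against 2 µM. Among the 8 genes chosen, these were Sesn2 (1.39) and Deptor (0.71).

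Of the ISR list, Trib3 (2.54), Atf3 (2.40), Fgf21 (2.31), Vldlr (2.00), Chac1 (1.84), Ddit3 (1.72), Nupr1 (1.53), Atf5 (1.32), Ppp1r15a (1.05), Asns (1.04) and Eif2ak2 (0.60) were higher at 10 µM. Of the FoxO list, Txnip (1.28), Pik3ip1 (1.05), Klhl24 (0.88), Pdk4 (0.83) and Fbxo32 (0.78) were higher. Of the p53 list, Gadd45a (1.78), Trp53inp1 (1.77), Btg2 (1.21) and Rrm2b (0.69) were higher. Of the other lists, Ndrg1 (1.22), Tsc22d3 (0.90), Eif4ebp1 (0.86), Sqstm1 (0.65), Gpnmb (0.61) and Gla (0.60) were higher and Irs1 (-0.76) was lower. Gla, Gpnmb, Eif2ak2 and Fgf21 lost their call in 7 to 12 other fits each. Fgf21 was tested only because of its counts at 10 µM, the dose at which it is high, so its place here is no support for a difference.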

How the results depend on the processing

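The rise of Sesn2 at 10 µM against 0 and 2 µM stood in all 17 other fits. The differences in the Sesn2 to Sesn3 ratio, which passed no test and so are not calls, had fewer alternatives. They moved by less than 1 pooled SD with 5 added to each count, with the replicate block and without 1 library. Calls of the 8 genes other than those of Sesn2 were less firm. At 2 µM, of the 8 genes, 0 were called with TMM over nuclear genes, total counts, at least 10 counts in every library or only the 2 groups compared, and 2 with no filter, DESeq2 or an adjusted p under 0.05, and 0 to 2 without 1 library. At 10 against 0 µM, 2 were called with total counts, the replicate block or an adjusted p under 0.05, the second being Deptor. Between 10 and 2 µM, 1 was called with shrunken DESeq2 estimates, 3 with total counts (the third being Ddit4) and 1 to 2 without 1 library.

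Over all genes, the calls at 2 µM (71) became 109 with DESeq2, 107 with no fold threshold, 178 at an adjusted p under 0.05 and 6 to 144 without 1 library, the lowest without the second library at 2 µM and the highest without the first untreated one. At 10 µM (442) they became 914 with total counts, 747 with no fold threshold, 727 at an adjusted p under 0.05, and 235 to 633 without 1 library, the lowest without the second library at 10 µM and 266 without the second and 293 without the third untreated one. Between 10 and 2 µM (788) they became 1539 with no fold threshold, 1190 at an adjusted p under 0.05, and 444 to 884 without 1 library, the lowest without the second library at 10 µM and 515 without the second at 2 µM. Scaling by total counts moved the median log2 fold change of all genes at 10 µM from 0.02 to 0.23, and relative to that shift Ddit4 (0.15) and Flcn (0.078), whose sign turned, and Sesn1 (-0.0020) stayed below the median.

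Signs turned for other values near 0 that passed no test. Sesn1 between 10 and 2 µM was -0.0278 with no filter, -0.0244 with DESeq2, -0.0205 with shrinkage, -0.0009 with the block and -0.0669 to 0.0343 without 1 library. Rragd was -0.0917 at 10 µM with the block, -0.42 to 0.57 there without 1 library, -0.61 to 0.22 at 2 µM and -0.13 to 0.86 between doses. Flcn between 10 and 2 µM was -0.18 to 0.16 without 1 library. By the median coding transcript length, the shares at 0, 2 and 10 µM were 37.0, 43.0 and 32.4% for Sesn1, 8.63, 13.2 and 25.7% for Sesn2, and 54.4, 43.8 and 41.9% for Sesn3. The causes were not tested.

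The labels tie the replicate numbers to no shared culture or day, and whether the numbers pair the samples was not settled. Deviations of same-numbered libraries at 0 and 2 µM correlated at 0.199, 0.0845 and 0.161. Those of differently numbered libraries at these doses correlated at -0.154 to 0.0584, below all same-numbered values. Same-numbered libraries correlated at -0.145 and -0.105 between 0 and 10 µM, and at -0.0212 and -0.061 between 2 and 10 µM. With the block, Deptor at 10 against 0 µM passed the thresholds (adjusted p = 0.0072). Of 61 results on list genes, 23 lost their call without some library and 13 under another alternative. The Gdf15 log2 ratio at 10 µM, 2.38, was 0.39 with shrinkage. Depth limits Rragd and Gdf15, for which changes of 1.5-fold were below what these counts can show.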

Other observations

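Atf4, the ISR factor itself, did not pass the fold threshold. Its log2 fold change at 10 against 0 µM, 0.56 ± 0.09, was past the p threshold (adjusted p = 0.00326, edgeR). DESeq2 gave 0.52 with an adjusted p of 8.2e-05, also short of the fold threshold. Atf4 was at 342.6, 285.0 and 280.1 CPM without RHPS4, 363.2, 334.5 and 340.1 CPM at 2 µM, and 449.9 and 439.0 CPM at 10 µM, where both libraries lay above the other 6. Groups at 10 and 0 µM did not overlap for 42.9% of all tested genes. ATF4 is known to be controlled mostly by translation, which these counts do not measure.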
